A study of Mus musculus with 14 samples.

Results

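Messenger RNA levels of 9 genes of epithelial cells were followed through the differentiation of mouse embryonic stem cells (ESCs) in culture. The genes were the keratins Krt8, Krt18 and Krt19, the adhesion gene Epcam, the claudins Cldn4, Cldn6 and Cldn7, the occludin gene Ocln and the scaffold gene Tjp1. They were taken by symbol from the deposited table of normalized values, and all 9 were found among its 16181 protein-coding genes and in the count table of 50686 genes. The study asked how depletion of DIS3L2, an exoribonuclease that degrades uridylated RNA, affects differentiation, and compared an ESC line with a stable short hairpin RNA against Dis3l2 (shDIS3L2, spelled shDis3l2 in the labels) with an isogenic line carrying a hairpin against LacZ (shLacZ). Both lines carried an Osr1-GFP reporter, according to the paper. Each line was sampled as undifferentiated ESCs in LIF and 2i (d0), and as embryoid bodies (EBs), floating aggregates that differentiate without direction, every other day from d2 to d12 after LIF and 2i were withdrawn in serum, with the first days in hanging drops. There was 1 library for each line and day, 14 in all, so that each line is 1 cell line without replicate cultures.

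Simple epithelia line cavities and surfaces as single sheets of cells. Krt8 encodes a type II keratin, which pairs with a type I keratin, Krt18 or Krt19, to form the intermediate filaments of these cells, and these are among the first keratins made in the mouse embryo, in trophectoderm and in the endoderm that surrounds the epiblast. Tight junctions seal neighbouring cells near their apical side: claudins (Cldn4, Cldn6, Cldn7) form the sealing strands, occludin (Ocln) is a further transmembrane protein of the strand, and ZO-1, the product of Tjp1, is the cytoplasmic scaffold that joins the strand to actin. EpCAM is a homophilic adhesion molecule of epithelia that also binds claudin-7, and it is present on pluripotent cells as well as on endoderm.

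Between 7178712 and 39888099 reads were assigned to genes in each library, and 3 reads, the floor used here, equal 0.418 CPM (a gene's reads scaled to a common total of reads assigned to genes) in the shallowest library, shLacZ d4. Dis3l2 itself stood in shDIS3L2 at 13.7% of its shLacZ level in ESCs and, in the EBs from d2 to d12, at 28.1%, 32.1%, 55.2%, 97.1%, 95% and 75.4%, so the depletion was seen in the mRNA early and was small or not seen at d8 and d10. The d0 libraries stood apart in composition: their TMM factors were 0.764 in shLacZ and 0.642 in shDIS3L2, against 0.999 to 1.12 in the other 12. At d0 the median log2 ratio of shDIS3L2 to shLacZ over all genes was -0.32 by library totals, -0.06 with TMM factors and 0.08 with DESeq2 size factors, and d0 ratios below are to be read against that shift.

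In GRCm38, Krt8 on chr15:101996711-102004342 (minus strand) and Krt18 on chr15:102028216-102032026 (plus strand) were neighbours, 23873 bases apart and read in opposite directions, away from each other. The other members lay apart: Krt19 on chr11:100140810-100148665 and Cldn7 on chr11:69964779-69967885, Epcam on chr17:87635979-87651106 and Cldn6 on chr17:23679365-23682446, Cldn4 on chr5:134945119-134946934, Ocln on chr13:100496507-100552718 and Tjp1 on chr7:65296165-65527781. The counts of Krt8 are uncertain, since a processed pseudogene, Krt8-ps, on chr7:23357125-23358069, matched a Krt8 transcript at 98.6% of 941 aligned bases and had 18297 reads assigned in all libraries together, against 40560 for Krt8. Krt8-ps held 8.71 reads for every 100 of Krt8 in shLacZ and 2.41 in shDIS3L2 at d0, and between 36.7 and 49.6 from d2 on in both lines. With both counted as 1 gene, no call on Krt8 changed in the 7 main tests given below. No other gene of the count table had an exon that overlapped one of the 9.

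Promoter windows of 300 bases, from 250 before to 50 after the annotated start, were read from RefSeq on GRCm38.p6 for 8 of the 9 genes, in 10 entries, since Cldn7 and Ocln had more than 1. CACCTG, the form of the E box bound by the SNAI and ZEB repressors of epithelial genes, was present on either strand in 8 of the 10 windows and in 20.2% of all 32851 windows. The broader E box CANCTG, which includes every CACCTG, was in 8 of 10 and in 51.4% of all. The windows of the Ocln entries overlapped, and a CACCTG site in the shared stretch was counted in both. GGGCGG, the GC box, was in 7 of 10 against 35.7%, TATAAA was in 1 of 10, that of Krt8, against 13.6%, and AACCGGTT, a motif of the GRHL factors, was in 0 of 10 against 0.146%. These matches are descriptions of letters and not of bound sites. The motif began before the start by 111 bases in Krt8, 214 in Krt18, 187 and 19 in Epcam, 14 in Cldn4 and 93 in Cldn6, and by 97 and 57 in the second entry of Cldn7 and 213 and 68 in that of Ocln. In Krt8, Cldn6, Cldn7 and Ocln these positions came after the start of a longer annotated transcript. The stretches before every annotated exon are therefore shown for the 3 genes whose motif lies there, which include 2 genes with lower late levels in shDIS3L2, Krt18 and Epcam, and 1 that did not pass that test, Cldn4. They are Krt18 (chr15:102027966-102028179, plus strand), Epcam (chr17:87635729-87635978, plus strand) and Cldn4 (chr5:134946935-134947184, minus strand), each written 5′ to 3′ in the direction of its gene, with CACCTG, or its reverse complement CAGGTG, in capitals.
Krt18: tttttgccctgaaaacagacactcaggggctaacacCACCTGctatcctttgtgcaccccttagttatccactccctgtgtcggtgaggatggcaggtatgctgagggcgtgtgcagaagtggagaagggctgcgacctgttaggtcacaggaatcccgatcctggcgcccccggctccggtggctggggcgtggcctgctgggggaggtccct
Epcam: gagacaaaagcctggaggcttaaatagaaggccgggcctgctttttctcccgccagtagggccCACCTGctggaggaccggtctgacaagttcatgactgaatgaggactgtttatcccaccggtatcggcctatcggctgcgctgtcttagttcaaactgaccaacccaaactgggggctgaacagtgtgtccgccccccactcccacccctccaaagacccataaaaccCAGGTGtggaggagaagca
Cldn4: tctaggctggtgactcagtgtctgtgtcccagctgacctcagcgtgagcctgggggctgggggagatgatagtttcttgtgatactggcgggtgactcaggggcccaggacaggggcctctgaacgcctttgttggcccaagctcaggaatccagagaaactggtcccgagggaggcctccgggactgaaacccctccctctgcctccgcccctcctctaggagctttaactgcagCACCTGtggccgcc

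The 3 keratins followed 1 course: low in ESCs and at d2, rising at d4 and d6, and high to d12 in shLacZ. In shLacZ, Krt8 stood at 38.3 CPM at d0 and 11.9, 185, 366, 336, 326 and 369 CPM in the EBs from d2 to d12, in the order of the days. In shDIS3L2, Krt8 stood at 25 CPM at d0 and 12.5, 77.5, 449, 344, 204 and 191 CPM in the EBs from d2 to d12. The shDIS3L2 library was therefore below shLacZ at d4, above it at d6, level with it at d8 and below it again at d10 and d12.

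Krt18, the type I partner of Krt8, measured 19.1 CPM at d0 and 13.7, 194, 559, 569.8, 523 and 477 CPM in the EBs from d2 to d12 in shLacZ. The shDIS3L2 values were 14.2 CPM at d0 and 14.4, 62.6, 535, 464, 276 and 217 CPM in the EBs from d2 to d12. Its shLacZ level changed little between d6 and d12, whereas each later shDIS3L2 library was lower than the one before it. Krt19, a type I keratin found in ducts, mesothelium and trophectoderm, measured 7.82 CPM at d0 and 3.64, 35.5, 94.9, 59.6, 68.6 and 67.8 CPM in the EBs from d2 to d12 in shLacZ. In shDIS3L2 it measured 5.02 CPM at d0 and 2.57, 10.3, 87.8, 84, 62.2 and 65.6 CPM in the EBs from d2 to d12. For all 3 keratins the late ranges of the lines overlapped, and Krt19 was the higher in shDIS3L2 at d8 and close to shLacZ at d12.

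**Figure D1:**
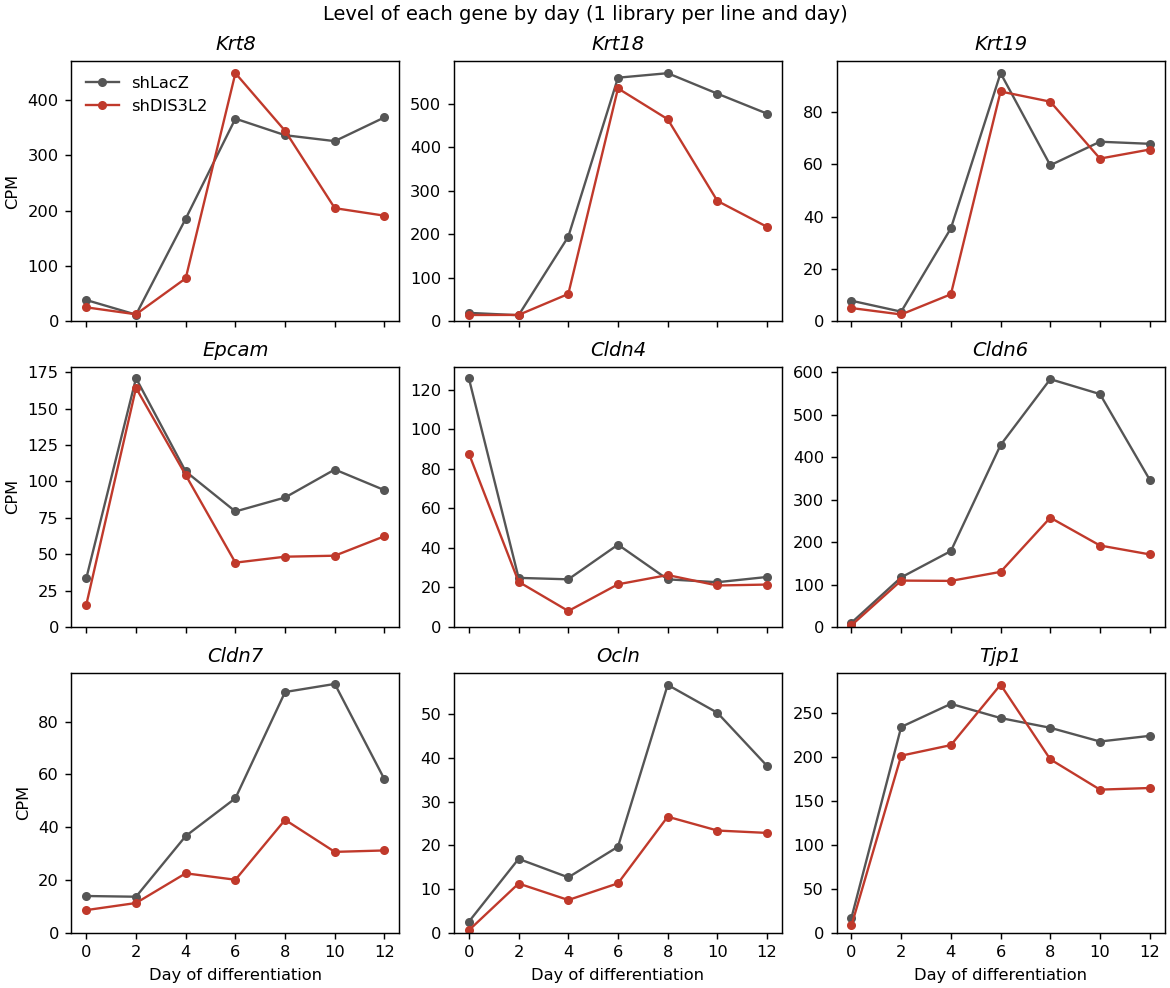
Level of each of the 9 genes in CPM (y axis, linear, from 0) against the day of differentiation (x axis), with 1 point per library, shLacZ in grey and shDIS3L2 in red. The keratins rise from d2 to d6 in both lines, and Cldn4 is highest at d0. From d6 on, every shDIS3L2 library lies below every shLacZ library for Epcam, Cldn6 and Cldn7.

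The steps between days were tested with edgeR, with the lines standing in for replicates of a day. From d0 to d2, 4 of the 9 genes rose and 3 fell, against 34.5% of all 20050 genes tested higher and 31% lower (6924 and 6212 genes, or 9265 and 4107 without TMM factors). The genes that rose were Tjp1 (log2 fold 3.55 ± 0.22 (SE), adjusted p = 1.38e-06), Cldn6 (log2 fold 3.63), Ocln (2.77) and Epcam (2.31). Those that fell were Cldn4 (log2 fold -2.74 ± 0.35 (SE), adjusted p = 7.09e-05), Krt8 (log2 fold -1.93) and Krt19 (-1.64), although Krt19 did not pass without TMM factors (log2 fold -1.04, adjusted p = 0.0568). Tjp1, Cldn6, Ocln and Epcam were thus up by d2 while Krt8 and Krt19 were at their lowest of the 7 days in both lines. Krt18 and Cldn7 had log2 folds of -0.81 and -0.40 and did not pass (adjusted p = 0.0837 and 0.279). Krt18 was called lower in 3 of 8 alternatives, among them DESeq2 (log2 fold -0.93, adjusted p = 0.0397). Without TMM factors the value of Cldn7 turned to 0.21.

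From d2 to d4, 4 genes rose and none fell, against 9.25% of all genes higher and 8.23% lower: Krt8 (log2 fold 3.31 ± 0.37 (SE), adjusted p = 0.000593), Krt18 (log2 fold 2.99), Krt19 (2.76) and Cldn7 (1.17, adjusted p = 0.0299). From d4 to d6 the 3 keratins rose again, against 7.54% of all genes higher and 6.24% lower, with log2 folds of 1.79, 2.30 and 2.16 for Krt8, Krt18 and Krt19. The 2 steps were divided differently between the lines. From d2 to d4 the CPM of Krt8, Krt18 and Krt19 rose 15.6, 14.2 and 9.76 times in shLacZ and 6.21, 4.35 and 4.00 times in shDIS3L2. From d4 to d6 they rose 1.98, 2.88 and 2.67 times in shLacZ and 5.79, 8.55 and 8.53 times in shDIS3L2. With 1 library a point, this difference between the lines at a single step has no test. Between d6 and d12 none of the 9 genes passed edgeR's test, against 5.02% of all genes higher and 2.15% lower; 2 of them, Ocln and Tjp1, had an unadjusted p under 0.05, against 26.2% of all genes, and DESeq2 called 1, Ocln, higher at d12.

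Epcam, an adhesion gene, peaked at d2 in both lines. It measured 33.5 CPM at d0 and 171, 107, 79.4, 89, 108 and 94 CPM in the EBs from d2 to d12 in shLacZ. In shDIS3L2 it measured 15.3 CPM at d0 and 164, 104, 44.2, 48.3, 49 and 62.4 CPM in the EBs from d2 to d12. The lines were level at d2 and d4, and from d6 on every shDIS3L2 library was below every shLacZ library.

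Among the claudins, Cldn4, which is also a gene of trophectoderm and of many simple epithelia, was the one with its highest level in ESCs. It measured 126 CPM at d0 and 24.8, 24.1, 41.6, 24.1, 22.6 and 25.3 CPM in the EBs from d2 to d12 in shLacZ. Its shDIS3L2 values were 87.7 CPM at d0 and 22.8, 8.07, 21.6, 26.3, 21 and 21.4 CPM in the EBs from d2 to d12. Apart from the lower shDIS3L2 values at d4 and d6, the EB libraries of both lines lay close together. Cldn6, a claudin of early embryonic epithelia, measured 10.1 CPM at d0 and 117, 179, 429, 584, 549 and 347 CPM in the EBs from d2 to d12 in shLacZ. In shDIS3L2 it measured 4.04 CPM at d0 and 109, 109, 129.8, 258, 192 and 171 CPM in the EBs from d2 to d12. It was level between the lines at d2, parted at d4 and stayed apart, and the highest late shDIS3L2 library was below the lowest late shLacZ library. Cldn7, the claudin bound by EpCAM, measured 13.9 CPM at d0 and 13.6, 36.6, 51, 91.2, 94.3 and 58.1 CPM in the EBs from d2 to d12 in shLacZ. The shDIS3L2 values were 8.57 CPM at d0 and 11.3, 22.5, 20.1, 42.8, 30.6 and 31.2 CPM in the EBs from d2 to d12. Its late libraries did not overlap between the lines either.

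Occludin mRNA was the lowest of the 9 at d0. Ocln measured 2.53 CPM at d0 and 16.9, 12.7, 19.7, 56.7, 50.4 and 38.2 CPM in the EBs from d2 to d12 in shLacZ. In shDIS3L2 it measured 0.567 CPM at d0 and 11.3, 7.49, 11.3, 26.6, 23.4 and 22.8 CPM in the EBs from d2 to d12. The d0 value of shDIS3L2 rests on 15 reads, whereas every other value of the 9 genes rests on at least 55. The shDIS3L2 line was the lower on all 7 days, although the shLacZ library of d6 fell within the late range of shDIS3L2. Tjp1, the gene of the scaffold ZO-1, measured 17.2 CPM at d0 and 234, 260.4, 244, 233, 218 and 224 CPM in the EBs from d2 to d12 in shLacZ. In shDIS3L2 it measured 8.31 CPM at d0 and 201, 213, 282, 197, 163 and 165 CPM in the EBs from d2 to d12. After its rise at d2 it held a nearly constant level in shLacZ, and in shDIS3L2 it was highest at d6, above shLacZ, and lower than shLacZ on every other day.

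The claudin makeup changed between ESCs and EBs when levels were set per length (TPM, a share per length scaled like CPM, computed from the counts and the length column). Cldn4 made up 83.3% of the summed TPM of the 3 claudins in shLacZ and 87.2% in shDIS3L2 at d0, and 13.9% and 13.8% at d2. Cldn6 made up 8.06% and 4.85% at d0 and between 78.7% and 86.6% in the 12 EB libraries. The switch of the leading claudin was thus present in both lines. The sum itself differed, reaching 982 TPM in shLacZ and 458 TPM in shDIS3L2 at d8, the highest library of each line.

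**Figure D2:**
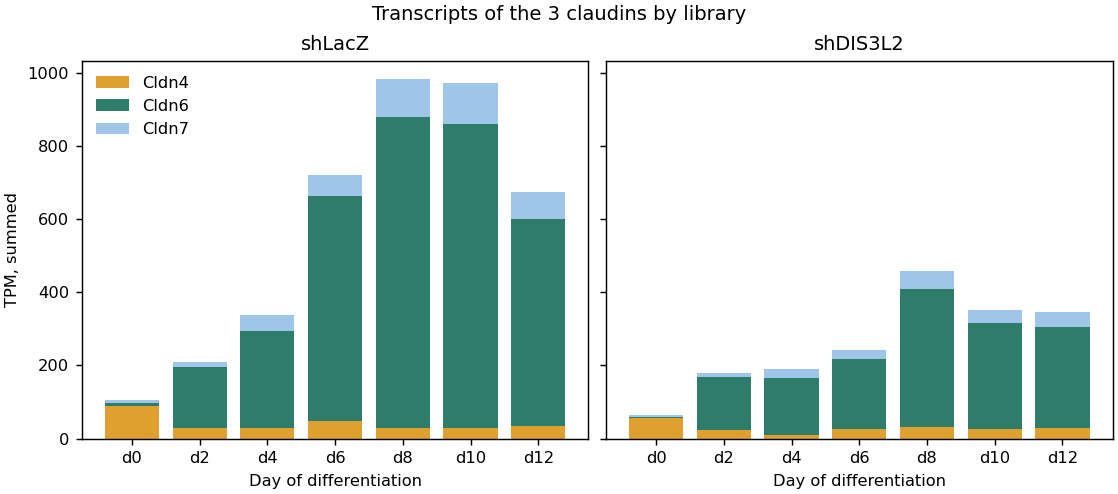
Summed TPM (y axis, linear, from 0) of Cldn4, Cldn6 and Cldn7 in each library (x axis, d0 to d12), stacked by gene, with shLacZ on the left and shDIS3L2 on the right. Cldn4 fills most of the d0 bars and Cldn6 most of every later bar, and the bars of shDIS3L2 are shorter than those of shLacZ on every day.

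Per length, the ratio of Krt18 to Krt8 was 0.644 in shLacZ and 0.731 in shDIS3L2 at d0, and between 1.04 and 2.18 from d2 on. On each day from d4 to d12 it was lower in shDIS3L2 than in shLacZ. The ratio of Krt19 to Krt18 stood at 0.128 and 0.124 in shLacZ and shDIS3L2 at d6 and at 0.107 and 0.229 at d12. The ratio of Krt18 to Krt8 inherits the uncertainty of the Krt8 counts.

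Over d6 to d12, the order of the genes per length in shLacZ was Krt18 at 861 ± 23.8 TPM (mean ± SD over 4 days), Cldn6 at 715 ± 147 TPM, Krt8 at 439.9 ± 43 TPM, Epcam at 103 ± 16.8 TPM, Krt19 at 88.7 ± 16.4 TPM, Cldn7 at 85.7 ± 25.3 TPM, Tjp1 at 66.7 ± 2.9 TPM, Cldn4 at 35.3 ± 9.76 TPM and Ocln at 22.2 ± 8.68 TPM. The ranges over the days did not overlap between Cldn6 and Krt8, between Krt8 and Epcam, or between Tjp1 and Cldn4. The other neighbours in this order overlapped, although Tjp1 overlapped neither Epcam nor Krt19. In shDIS3L2 the order was Krt18 at 603 ± 225 TPM, Krt8 at 373 ± 143 TPM, Cldn6 at 284 ± 75.9 TPM, Krt19 at 92.1 ± 13.1 TPM, Tjp1 at 58.8 ± 14.8 TPM, Epcam at 57.5 ± 11.8 TPM, Cldn7 at 36.6 ± 10.6 TPM, Cldn4 at 28.4 ± 2.61 TPM and Ocln at 11.4 ± 3.67 TPM. Cldn6 moved from the second to the third place and Epcam from the fourth to the sixth. Here the ranges did not overlap between Cldn6 and Krt19 or between Cldn4 and Ocln, and overlapped for the other neighbours.

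The lines were then compared on each day by the ratio of shDIS3L2 to shLacZ, with an exact 95% interval that covers counting error only, and a difference of at least 3-fold was counted. At d0 all 9 genes were lower in shDIS3L2, under each of the 3 scalings, as were 75.5% of all genes by library totals, and Ocln was lower by at least 3-fold (4.47-fold lower, ratio 0.224, interval 0.121 to 0.387), against 2.29% of all genes lower and 0.584% higher by that measure. The median log2 ratio of the 9 genes at d0 was -0.70 by library totals and -0.45 with TMM factors. At d2 no member reached 3-fold, against 0.129% of genes lower and 0.114% higher, and the median log2 ratio of the 9 genes was -0.12, the nearest to 0 of the 7 days, with the largest difference in Ocln (1.5-fold lower).

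At d4 the keratins and Cldn4 were the genes that differed most. Krt19 was 3.45-fold lower in shDIS3L2 (ratio 0.29, interval 0.24 to 0.349) and Krt18 3.1-fold lower (ratio 0.322, interval 0.299 to 0.348), both past 3-fold, against 1.68% of genes lower and 0.361% higher. Cldn4 fell just short of it (2.99-fold lower), Krt8 was 2.39-fold lower, and Epcam was level (ratio 0.977, interval 0.899 to 1.06). At the same day 15 markers of visceral endoderm, a keratin-bearing epithelium of the early embryo, summed to 1279.6 (shLacZ) and 477 CPM (shDIS3L2). A list of 11 trophoblast markers, which holds Eomes, Hand1 and Cdx2, summed to 364 and 636 CPM. Of its genes, 8 reached 1 CPM in the shLacZ library and 6 in that of shDIS3L2, while 2 and 3 had no reads. Cdx2 stands in the gut endoderm list below as well, whose sum at d4 was 648 (shLacZ) and 442 CPM (shDIS3L2). Which genes made up the trophoblast sum is not given here, so it is not read as a level of trophoblast cells. The part of these cell types in the keratin difference was not tested. In bulk RNA, fewer cells of a type and less RNA per cell cannot be told apart.

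At d6 the keratins were no longer lower by much, and Cldn6 was. Krt8 was 1.22-fold and Tjp1 1.16-fold higher in shDIS3L2, Krt18 and Krt19 had ratios of 0.956 and 0.926, and Cldn6 was 3.3-fold lower (ratio 0.303, interval 0.285 to 0.321), the one member past 3-fold, against 4.21% of genes lower and 2.69% higher. At d8 no member reached 3-fold, against 3.71% lower and 5.47% higher, and Krt19 was 1.41-fold higher while Cldn6, Cldn7 and Ocln were 2.27-, 2.13- and 2.14-fold lower. At d10 all 9 ratios were below 1, as were 49.4% of those of all genes, and Cldn7 was 3.08-fold lower (ratio 0.325, interval 0.292 to 0.361), against 3.13% lower and 8.62% higher. At d12 all 9 were again below 1, against 45.4% of all genes, and none reached 3-fold, against 1.39% lower and 8.1% higher, with Krt18 (2.2-fold) and Cldn6 (2.03-fold) the furthest below. No member was 3-fold higher in shDIS3L2 on any of the 7 days. Lower by at least 2-fold, a looser limit, were 4 of the 9 on d0, 0 on d2, 4 on d4, 2 on d6, 3 on d8, 4 on d10 and 2 on d12. These counts are read against the following shares of all genes: 10.3% on d0, 1.16% on d2, 5.08% on d4, 8.31% on d6, 8.49% on d8, 8.67% on d10 and 4.21% on d12. Both are by library totals. At d0 with TMM factors, Cldn6 and Ocln stayed at least 2-fold lower (ratios 0.477 and 0.266), and Epcam and Tjp1 did not (0.545 and 0.575). With DESeq2 size factors Ocln stayed so (0.293) and Cldn6 did not (0.525).

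**Figure D3:**
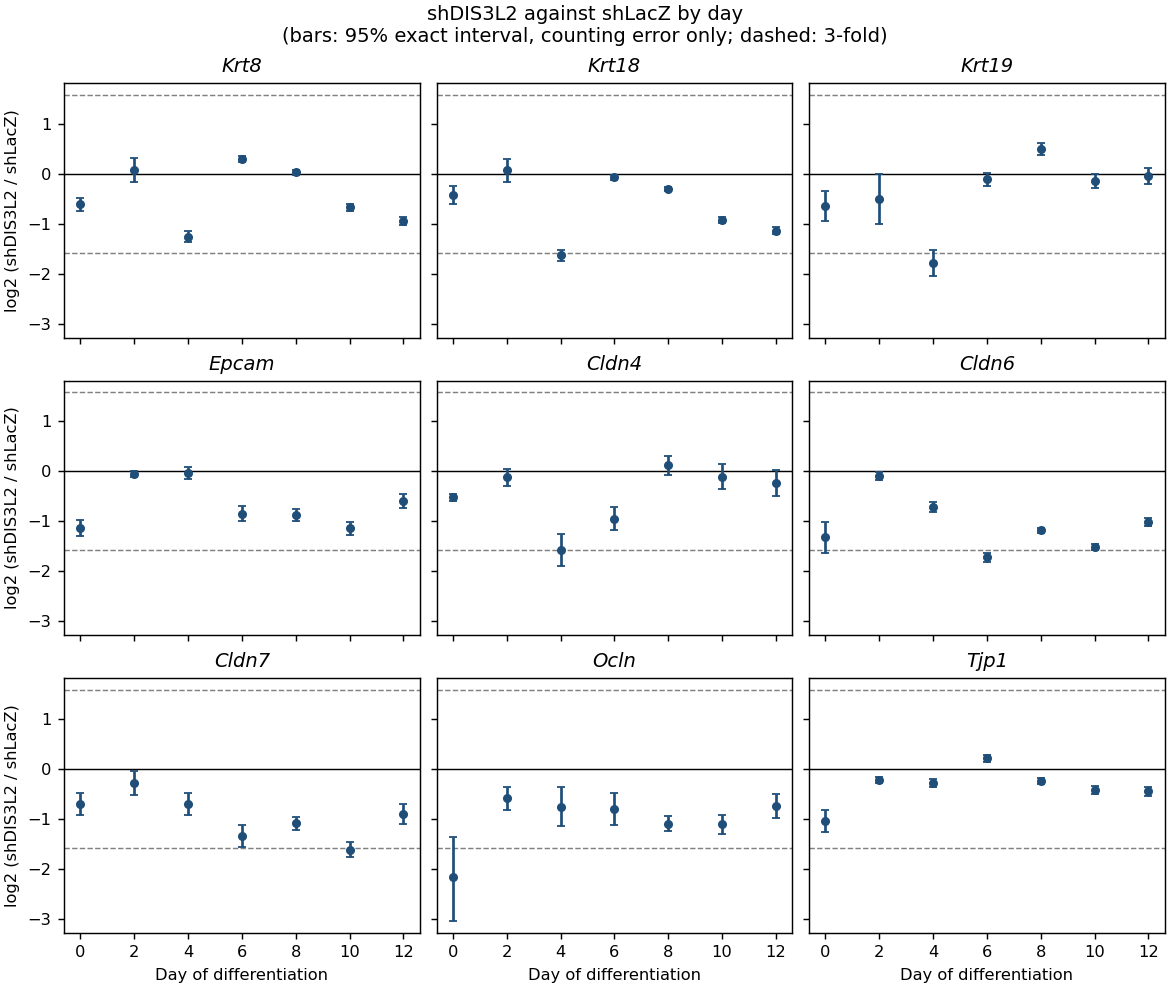
log2 ratio of shDIS3L2 to shLacZ (y axis) by day (x axis) for each gene, with bars for the exact 95% interval of counting error and dashed lines at 3-fold. The keratins dip at d4 and return to near 0 at d6, and Krt8 and Krt18 fall again by d12, whereas Epcam, Cldn6, Cldn7 and Ocln stay below 0 at d6 and after.

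Over d6 to d12 the lines were compared with edgeR, with day as a block. The days of 1 series stand in for replicates, so the p-values measure the spread of the difference between days and do not set the lines against other cultures. Of the 9 genes, 5 were lower in shDIS3L2 and none was higher, against 18.7% of 17164 genes lower and 19.6% higher; the median log2 fold was -0.61 over the 9 genes and 0.02 over all genes tested. The 4 that fell most were Cldn6 (log2 fold -1.37 ± 0.12 (SE), adjusted p = 0.000557), Cldn7 (log2 fold -1.25 ± 0.12 (SE), adjusted p = 0.000737), Ocln (log2 fold -0.95 ± 0.10 (SE), adjusted p = 0.000917) and Epcam (log2 fold -0.88 ± 0.09 (SE), adjusted p = 0.000958). Each of these 4 passed without any 1 of the 4 days. Krt18 was also lower (log2 fold -0.61 ± 0.18 (SE), adjusted p = 0.0337), but its adjusted p rose to 0.0707 without d8, 0.147 without d10 and 0.0935 without d12.

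The other keratins, Cldn4 and the scaffold gene did not pass: Krt8 (log2 fold -0.33 ± 0.20 (SE), adjusted p = 0.241), Cldn4 (log2 fold -0.30 ± 0.17), Tjp1 (-0.23 ± 0.12) and Krt19 (0.04 ± 0.12). Krt8 and Tjp1, which were higher in shDIS3L2 at d6, passed as lower when d6 was left out (log2 fold -0.54, adjusted p = 0.0469 and log2 fold -0.38, adjusted p = 0.00924). In CPM, every late shDIS3L2 library was below every late shLacZ library for 3 of the 9 genes, Epcam, Cldn6 and Cldn7, against 10.4% of 15350 protein-coding genes. Krt18 and Ocln were lower in shDIS3L2 on each of the 4 days, with ranges that overlapped across days. The share of all genes lower on each of the 4 days was not computed. On single late days, 45.4% (d12) to 50% (d6) of all genes were lower.

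**Figure D4:**
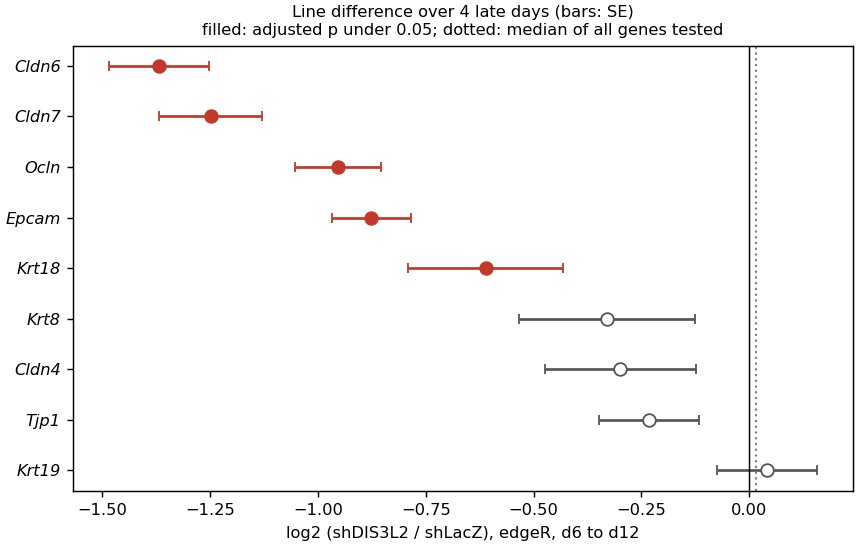
log2 ratio of shDIS3L2 to shLacZ over d6 to d12 from edgeR (x axis) for each gene (y axis), with bars for the SE, filled points for an adjusted p under 0.05 and a dotted line at the median of all genes tested. Cldn6 at -1.37 and Cldn7 at -1.25 lie furthest to the left, and Krt19 at 0.04 lies at the median.

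Over all 7 days, 4 genes were lower in shDIS3L2 and none higher, against 3.82% of genes lower and 1.91% higher: Cldn6 (log2 fold -1.08 ± 0.18 (SE), adjusted p = 0.0167), Ocln (log2 fold -0.99), Cldn7 (-0.95) and Epcam (-0.66). These calls were lost without d8, d10 or d12, and without d6 for all but Ocln, and over all alternatives the adjusted p reached 0.125, with log2 folds between -1.21 and -0.57. Whether the difference changed from d0, d2 and d4 to d6 and after was tested as an interaction. It became more negative for Cldn6 (log2 fold -0.86 ± 0.23 (SE), adjusted p = 0.0416) and Cldn7 (log2 fold -0.85 ± 0.20 (SE), adjusted p = 0.0236), and for none of the 9 more positive, against 5.24% of genes lower and 4.85% higher (1051 and 972 genes, or 415 and 1139 without TMM factors). Both calls were lost when some single days were left out, and were kept in 4 of 10 alternatives for Cldn6 and 5 of 10 for Cldn7. Krt19 (log2 fold 0.91 ± 0.32 (SE), adjusted p = 0.0919) and Epcam (log2 fold -0.65 ± 0.22 (SE), adjusted p = 0.0831) did not pass, and no change was detected for Ocln (-0.11 ± 0.28), which was lower from d0 on.

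Other genes of the same structures were described over d6 to d12 from lists, beside the 18.7% lower and 19.6% higher over all genes. The tight junction and polarity genes gave 2 higher, 13 lower and 6 not called of 21 tested (median log2 fold -0.62). Those that fell most were Marveld3, a tetraspan relative of occludin (log2 fold -1.47 ± 0.20, adjusted p = 0.00209), the apical polarity gene Crb3 (log2 fold -1.18 ± 0.13, adjusted p = 0.00119) and Cgn, which encodes the junction plaque protein cingulin (log2 fold -1.11 ± 0.09, adjusted p = 0.000445). Cgn measured 39.9 to 81.9 CPM in shLacZ and 17.3 to 36.9 CPM in shDIS3L2, without overlap. Amotl1, an angiomotin-like gene, and Jam3, a junctional adhesion molecule, rose (log2 fold 1.08 ± 0.11, adjusted p = 0.000904; log2 fold 0.82 ± 0.15, adjusted p = 0.00574).

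The epithelial adhesion genes gave 3 higher, 11 lower and 8 not called of 22 tested (median -0.59). The largest falls were in the plakophilin gene Pkp3 (log2 fold -1.49 ± 0.16, adjusted p = 0.00108), Ap1m2, an adaptor subunit of basolateral sorting (log2 fold -1.48 ± 0.11, adjusted p = 0.000427), and Bspry (log2 fold -1.47 ± 0.16, adjusted p = 0.000973), and the 3 genes that rose were the desmosomal cadherin gene Dsc2 (log2 fold 1.12 ± 0.27, adjusted p = 0.0162), Cdh3, which encodes P-cadherin (log2 fold 0.81 ± 0.20, adjusted p = 0.0182), and Cd24a (log2 fold 0.39 ± 0.13, adjusted p = 0.0498). Other claudins gave 2 higher, 1 lower and 5 not called of 8 tested: Cldn2 fell (log2 fold -0.73 ± 0.18, adjusted p = 0.0177) and Cldn1 and Cldn5 rose (log2 folds 2.14 and 0.76), all at low levels, with a mean Cldn1 level over the 4 days of 0.327 CPM in shLacZ against 1.39 in shDIS3L2. Cldn1 had libraries at or under the floor of 3 reads. The other keratins gave 3 higher, 2 lower and 5 not called of 10 tested. Krt13, Krt15 and Krt14, keratins of stratified epithelia, rose (log2 folds 2.89, 2.22 and 2.09), from 0.844, 1.03 and 0.206 CPM in shLacZ to 6.84, 6.23 and 0.938 CPM in shDIS3L2 (means over 4 days), and Krt23 and Krt6a fell (log2 folds -1.25 and -0.88). The keratins that rose were thus other ones than the simple epithelial Krt8, Krt18 and Krt19, and far lower in level, with Krt14 under the floor of 3 reads in some late shLacZ libraries.

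Transcription and splicing regulators of the epithelial state gave 0 higher, 9 lower and 6 not called of 15 tested (median -0.80). Those that fell included Ovol1 (log2 fold -1.68 ± 0.33, adjusted p = 0.00865), Grhl2 (log2 fold -1.33 ± 0.28, adjusted p = 0.0106), Elf3 (log2 fold -1.17 ± 0.23, adjusted p = 0.00836), Klf4 (log2 fold -1.17), Esrp1 (-1.06), Ovol2 (-1.03), Esrp2 (-0.97) and Klf5 (-0.69). Grhl2, a transcription factor known to act on junction genes, measured 10.3 to 15.9 CPM in shLacZ and 4.34 to 8.9 CPM in shDIS3L2, and Esrp1 and Esrp2 encode epithelial splicing factors. Repressors of the epithelial state gave 6 higher, 1 lower and 1 not called of 8 tested (median 1.15). Twist2 (log2 fold 2.40 ± 0.22, adjusted p = 0.000664), Zeb1 (log2 fold 1.95 ± 0.21, adjusted p = 0.00106) and Zeb2 (log2 fold 1.54 ± 0.15, adjusted p = 0.000803) rose most, followed by Snai2 (1.38), Twist1 (0.92) and Tcf4 (0.71). Zeb1 measured 14 to 33.5 CPM in shLacZ and 77.1 to 104 CPM in shDIS3L2, without overlap. Snai3 fell, from 1.01 to 0.19 CPM, and Snai1 did not pass (log2 fold -0.18 ± 0.25, adjusted p = 0.616).

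**Figure D5:**
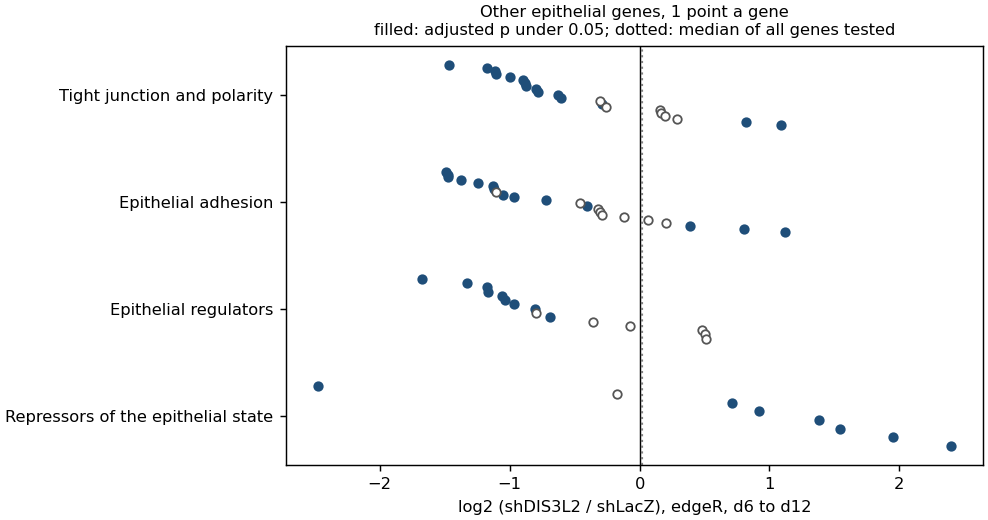
log2 ratio of shDIS3L2 to shLacZ over d6 to d12 from edgeR (x axis) for the genes of 4 lists (y axis), with 1 point a gene, filled for an adjusted p under 0.05, and a dotted line at the median of all genes tested. Most points of the junction, adhesion and regulator lists lie left of 0, and 6 of the 8 repressors lie right of it and are filled.

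Lists of markers of cell types that EBs hold were compared between the lines over d6 to d12 as well, and differed in both directions. The summed level of the 15 visceral endoderm markers was 3917 to 8573 CPM in shLacZ and 908 to 2739 CPM in shDIS3L2, with 0 higher, 13 lower and 2 not called of 15 tested; Apob, Cubn and Afp fell most (log2 folds -2.25, -2.13 and -2.06). The 15 mesenchyme markers summed to 2546 to 4017 CPM in shLacZ and 6566 to 22359 CPM in shDIS3L2, with 13 higher, 0 lower and 2 not called of 15 tested. Gut endoderm markers gave 0 higher, 6 lower and 3 not called of 9 tested, with sums of 398 to 545 and 132 to 257 CPM, and pluripotency genes 0 higher, 9 lower and 2 not called of 11 tested, with sums of 495 to 638 CPM in shLacZ and 72.9 to 393 CPM in shDIS3L2. No marker of these 4 lists was at 0 in all late libraries of a line. Of the other epithelia that carry these keratins, trophoblast gave 2 higher, 2 lower and 4 not called of 8 tested (sums of 109 to 291 CPM in shLacZ and 103 to 451 CPM in shDIS3L2), surface ectoderm 2 higher, 0 lower and 5 not called of 7 tested (24.9 to 46.3 and 28.6 to 52.3 CPM) and mesothelium 3 higher, 1 lower and 2 not called of 6 tested (37 to 67.4 and 40.5 to 99.2 CPM). Lists of other tissues gave, for neural markers, 1 higher, 4 lower and 3 not called of 8 tested, for cardiomyocyte markers 5 higher, 0 lower and 1 not called of 6 tested, for endothelial markers 3 higher, 0 lower and 3 not called of 6 tested and for blood markers 4 higher, 0 lower and 3 not called of 7 tested. Some genes stand in more than 1 list, among them Krt14, Krt15, Sox17, Foxa2 and Cdx2, so the lists are not independent counts. The part of these cell types in the lower levels of the junction genes was not tested.

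Across the 14 libraries, which share lines and days and are no independent samples, the keratins resembled each other, with Pearson correlations of log2(CPM + 1) of 0.98 for Krt8 and Krt18, 0.98 for Krt8 and Krt19 and 0.98 for Krt18 and Krt19, and of 0.99, 0.97 and 0.98 without d0. Cldn6 resembled Ocln (0.96, and 0.87 without d0) and Cldn7 (0.83 and 0.95), whereas its likeness to Tjp1 (0.90) went to 0.09 without d0. Epcam had negative correlations with Krt8, Krt18 and Krt19 without d0, of -0.74, -0.71 and -0.79. These include the d2 libraries, where Epcam was highest (171 CPM in shLacZ and 164 in shDIS3L2) and Krt8 lowest (11.9 and 12.5 CPM). Correlations over the later days alone were not computed, and Epcam and Krt18 were both lower in shDIS3L2 over d6 to d12. The values that follow, for genes outside the 9, include d0 and were not computed without it. Outside the 9 genes, among the 11559 genes for proteins that reached 10 CPM in any library, the courses most like Krt8 were those of Rnf43 (r = 0.98), Stard8 (0.979) and Snx6 (0.975), those most like Epcam Klf9 (r = 0.985), Taf4 (0.982) and Vprbp (0.979), and those most like Cldn6 Arhgap18 (r = 0.991), Rhod (0.986) and Slc38a9 (0.985).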

How the data were processed

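PolyA RNA was sequenced from shLacZ and shDIS3L2 cells on 7 days, with 1 library for each line and day. Per the methods, the authors used Subread for alignment to GRCm38 and featureCounts with the annotation of Ensembl 88. The deposited counts are raw whole numbers for 50686 genes. The deposited CPM table, which the authors made with edgeR, covers 16181 genes for proteins, and its values for the 9 genes were recovered from the counts, with a prior count of 0.25 and the totals of those genes, within a relative difference of 0.00498. The count columns of the knockdown line carry the name shm5 and were matched by day to shDis3l2, the one other line of the labels. How multi-mapping reads were counted is not given in the sources used here.

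CPM and ratios were computed from the counts with library totals over 50686 genes, with exact (Clopper-Pearson) 95% intervals that, like the floor of 3 reads, cover counting error only. TPM used the deposited length column. Tests were edgeR 4.0.16 quasi-likelihood F tests in R 4.3.3 (TMM, filterByExpr) with Benjamini-Hochberg adjustment over all genes tested and a threshold of 0.05, with day as a block for the lines and line as a covariate for the days. SEs were derived from the log2 fold and the F statistic. DESeq2 1.42.0, no TMM factors, no low-count filter, and leaving out each day were the alternatives. Scripts were tested on simulated data. A gene was counted as differing on a day at a ratio of at least 3 either way where either library reached 1 CPM. Copies were searched with BLAST in GENCODE M21 transcripts at 200 aligned bases and 90% identity; Krt18 also matched Gm5200, which the count table used here does not list. Gene symbols and types came from the CPM table and GENCODE M21. From each list, the 3 largest rises and falls past the threshold were to be named, and any regulator or repressor. The 9 genes, the 17 lists and these rules were chosen with earlier results of these data known. Single values of some genes under these rules are not reported here. Python 3.11.15 was used for the other steps.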

Additional observations from a re-analysis of the deposited data

Results flagged for a closer look

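The difference between the lines changed between stages for 2 of the 9 genes, by edgeR's interaction test. Both became more negative, against 5.24% of 20050 genes tested lower and 4.85% higher. For Cldn6 the log2 ratio of shDIS3L2 to shLacZ was lower in d6 to d12 than in d0 to d4 by a log2 change of -0.86 ± 0.23 (adjusted p = 0.0416), and its daily ratios were 0.401, 0.935, 0.607 at d0, d2 and d4 and 0.303, 0.441, 0.35, 0.493 at d6, d8, d10 and d12. For Cldn7 the change was -0.85 ± 0.20 (adjusted p = 0.0236), with ratios of 0.616, 0.825, 0.615 and 0.394, 0.469, 0.325, 0.537 on the same days. Over the 10 alternatives the adjusted p ran from 2.14e-05 to 0.185 for Cldn6 and from 0.00383 to 0.107 for Cldn7. Cldn6 passed in 4 of them and Cldn7 in 5. Among the left-out days, Cldn6 no longer passed without d2, d4, d6, d8 or d10, and Cldn7 not without d0, d2, d8 or d10.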

How the results depend on the processing

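No call on a member turned direction under any alternative. Of the alternatives to the tests on the 9 genes, the call was kept in 59 of 64 over d6 to d12, 74 of 91 over 7 days, 76 of 91 for the change between stages, and 69, 73, 66 and 71 of 73 for the steps from d0 to d2, d2 to d4, d4 to d6 and d6 to d12. Leaving out a day moved the counts over all genes: 1695 to 3440 higher and 1641 to 3237 lower over d6 to d12 (main 3365 and 3209, under these by over 1.5 times without d8 or d10), 1 to 841 higher and 7 to 1348 lower over 7 days (main 382 and 765, at most 31 and 71 without d6, d8, d10 or d12), 315 to 1169 and 209 to 982 for the change between stages (main 972 and 1051, lowest without d2, then d10 and d8), and 262 to 1161 lower from d6 to d12 (main 432, highest without d0). DESeq2 gave 1065 higher and 1446 lower over 7 days, and 1536 higher (main 1007) and 1152 lower from d6 to d12. Without the filter on low counts there were 847 higher and 1246 lower over 7 days and 1788 higher for the change. Without TMM factors there were 415 lower for the change and 4107 lower and 9265 higher from d0 to d2 (main 6212 and 6924). Counted at 2-fold instead of 3-fold, by library totals, the members lower in shDIS3L2 numbered 4 on d0, d4 and d10, 3 on d8, and 2 on d6 and d12, beside 10.3%, 5.08%, 8.67%, 8.49%, 8.31% and 4.21% of all genes on those days. The d0 count was smaller with TMM factors or DESeq2 size factors, as given above. The cause of these moves was not tested, except that 2-fold is the looser limit. Of 189 daily ratios under other scalings, 24 left their counting interval and Krt8 at d8 went below 1 with TMM factors. Krt8 and Krt8-ps counted as 1 gene was an alternative chosen after seeing the data, and changed no call. The tests of the lines pair them by day, and there are no replicate numbers to pair by, with 1 library for each line and day. Depth limits Ocln most, with 15 reads in shDIS3L2 at d0.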
